A study of Mus musculus with 15 samples.

Results

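The enzymes of de novo purine synthesis were followed through 15 bulk RNA-seq libraries as 10 genes chosen by name, out of 55291 genes in the deposited tables. The cells were HY19636, a murine pancreatic ductal adenocarcinoma (PDAC) line carrying mutant p53, derived from a mouse in which Ptf1a-Cre, a pancreatic driver, recombined engineered alleles that included 1 floxed copy of p53. Every group therefore came from 1 line and shared those alleles. Groups of 3 libraries came from control cultures, cultures treated for 24 h with 25 µM DON, a glutamine (Gln) analog, cultures in Gln-free medium for 24 h, and orthotopic HY19636 tumors in female C57BL/6J mice of 8 to 10 weeks. These mice received vehicle or DRP-104, a prodrug that releases DON, at 3 mg/kg a day over 2 cycles of 5 days on and 2 days off. All 10 genes were measured in every library and passed the filter on low values in every comparison, so none was lost.

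Purines are built stepwise on phosphoribosyl pyrophosphate (PRPP), which Prps1 makes. Gln donates an amide nitrogen at 3 steps of the route: Ppat commits PRPP to the pathway, Pfas acts in its middle and Gmps converts XMP to GMP. The trifunctional Gart, the bifunctional Paics, Adsl and Atic carry the intermediates on to IMP, using formyl groups from folate at some steps. Impdh1 and Impdh2 are isozymes that oxidise IMP on the way to GMP, and Adss and Adssl1 lead to AMP with Adsl. DON reacts with enzymes that use Gln, so the 3 amidotransferases are direct candidates for it, while the other 7 steps are not. The comparison asked whether the transcripts of these 3 genes moved apart from those of the other 7 under DON, without Gln and under DRP-104.

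Promoter windows are shown for 4 genes. These are the isozyme pair Impdh1 and Impdh2, which changed in opposite directions after DON, and the neighbours Ppat and Paics. Of these neighbours, Paics alone was called after DON and without Gln by the main test. Sequences run 5′ to 3′ on the gene's strand from 250 bases before to 50 bases after the start site, as given by RefSeq for GRCm38.p6. Capitals mark the motifs searched on both strands, which were CACGTG (the E-box bound by Myc and its partners), TTNCATCA (an ATF4-type element) and GCGCANGC (the NRF1 core). No motif overlapped another in these windows.
Impdh2, chr9:108560186-108560485, plus strand: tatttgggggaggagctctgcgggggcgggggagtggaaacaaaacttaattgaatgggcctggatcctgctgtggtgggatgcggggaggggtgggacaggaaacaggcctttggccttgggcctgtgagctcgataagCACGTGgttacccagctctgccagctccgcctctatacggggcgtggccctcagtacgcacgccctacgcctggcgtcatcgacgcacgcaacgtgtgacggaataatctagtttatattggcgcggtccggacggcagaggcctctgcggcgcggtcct
Impdh1, chr6:29216315-29216614, minus strand: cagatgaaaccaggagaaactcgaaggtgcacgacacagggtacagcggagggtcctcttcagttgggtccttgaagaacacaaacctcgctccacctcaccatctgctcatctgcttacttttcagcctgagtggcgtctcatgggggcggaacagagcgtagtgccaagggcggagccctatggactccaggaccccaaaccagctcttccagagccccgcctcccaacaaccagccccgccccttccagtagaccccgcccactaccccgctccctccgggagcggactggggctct
Ppat, chr5:76951529-76951828, minus strand: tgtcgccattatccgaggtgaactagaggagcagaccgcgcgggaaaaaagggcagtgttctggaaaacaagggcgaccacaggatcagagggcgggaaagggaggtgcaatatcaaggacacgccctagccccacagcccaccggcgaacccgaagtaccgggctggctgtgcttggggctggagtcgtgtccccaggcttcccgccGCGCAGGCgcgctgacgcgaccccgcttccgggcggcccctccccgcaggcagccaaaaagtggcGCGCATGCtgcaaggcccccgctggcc
Paics, chr5:76951052-76951351, plus strand: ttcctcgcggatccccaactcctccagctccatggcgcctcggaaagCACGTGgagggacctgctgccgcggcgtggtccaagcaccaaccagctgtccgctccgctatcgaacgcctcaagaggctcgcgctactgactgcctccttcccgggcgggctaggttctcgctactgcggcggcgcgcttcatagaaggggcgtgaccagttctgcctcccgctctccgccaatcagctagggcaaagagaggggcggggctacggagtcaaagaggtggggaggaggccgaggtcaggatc
The Impdh2 window held 1 CACGTG at 110 to 105 bases before the start site, and none of the 3 motifs stood in the Impdh1 window. RefSeq gives Impdh1 a second start site, and its window (chr6:29212248-29212547), not printed here, held none of them either. Paics also had 1 CACGTG, at 203 to 198 bases before its start, while Ppat had 2 copies of GCGCANGC, 1 on either side of its start site. Of the other members, Atic had a CACGTG, Gmps a GCGCANGC and Prps1 a TTNCATCA, and Gart and Adsl had none of these letters. Over all 32851 windows of this length, 7.15% held CACGTG, 3.97% TTNCATCA and 9.95% GCGCANGC. These matches describe the letters only. A window was found for 9 of the 10 members, the exception being Pfas.

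Ppat (chr5:76913249-76951578, minus strand) and Paics (chr5:76951307-76967509, plus strand) stand head to head in GRCm38 and overlap by 272 bases. Whether reads were counted by strand was not given in the sources used here, so reads in that overlap could not be told apart. Impdh2 (chr9:108560534-108565519) has a near-identical pseudogene, Impdh2-ps, and reads may have been split between them.

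Reads counted in genes summed to 25.2 to 48.2 M (mega) a library in cultures and to 16.3 to 20.7 M in tumors. These sums are not sequencing depths, and counting may have differed between cultures and tumors. Values below are normalized counts, which are reads divided by 1 size factor per library, and each table was scaled on its own. Log2 fold changes are on log2(value + 1), and a gene was called at an adjusted p under 0.05 from limma with Benjamini-Hochberg adjustment over all genes tested. Reads of the epithelial markers summed to 12675 to 15096 RPM (reads-per-million units of all reads in a library) in control cells, 4099 to 4304 in DON cells and 5471 to 6077 in Gln-free cells. None of the 5 islet markers had a read in any culture. Single tumors stood apart in 3 marker sums. DRP-104 tumor 3 had 66.7 RPM over 6 T cell markers, against 2.14 to 4.92 in the other tumors, vehicle tumor 3 had 146.7 over 6 acinar markers, against 9.09 to 50.9, and DRP-104 tumor 1 had 38.7 over the islet markers, against 4.57 to 17.4. The tumor results are therefore also given with tumors left out. Nothing in the labels says that the 3 libraries of a group came from separate cultures, so p-values in culture measure the spread between these samples, which may be technical.

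In control cells, with RPM divided by gene length in kb, Impdh2 and Paics were the most abundant of the 10 transcripts and Pfas the least. Impdh2 stood at 205 ± 15.8 (SD, n = 3), Paics at 135 ± 6.87 and Pfas at 9.65 ± 0.142 by the gene lengths of the authors' FPKM table. Those ends of the order held in all 5 groups, with Impdh2 and Paics in the first 2 ranks and Pfas at rank 10, and also with exon lengths from GENCODE M21. With the GENCODE lengths Impdh2 (103 ± 7.91) and Paics (107 ± 5.44) did not differ beyond their spread in control cells. The order of the 7 genes between these ends changed with the length used.

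DON split the members. Impdh2 rose 3.33-fold, Impdh1, Paics, Pfas and Gart fell, and the other 5 genes, among them the amidotransferases Ppat and Gmps, were not called. Thus 5 of 10 members were called, 1 higher and 4 lower, against 68.1% of the 13556 genes tested, 33.3% higher and 34.7% lower. In 6 of 10 members the DON and control libraries did not overlap, as in 71.9% of all genes tested. The members' median log2 fold change was -0.18, beside 0.02 over all genes tested.

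**Figure D1:**
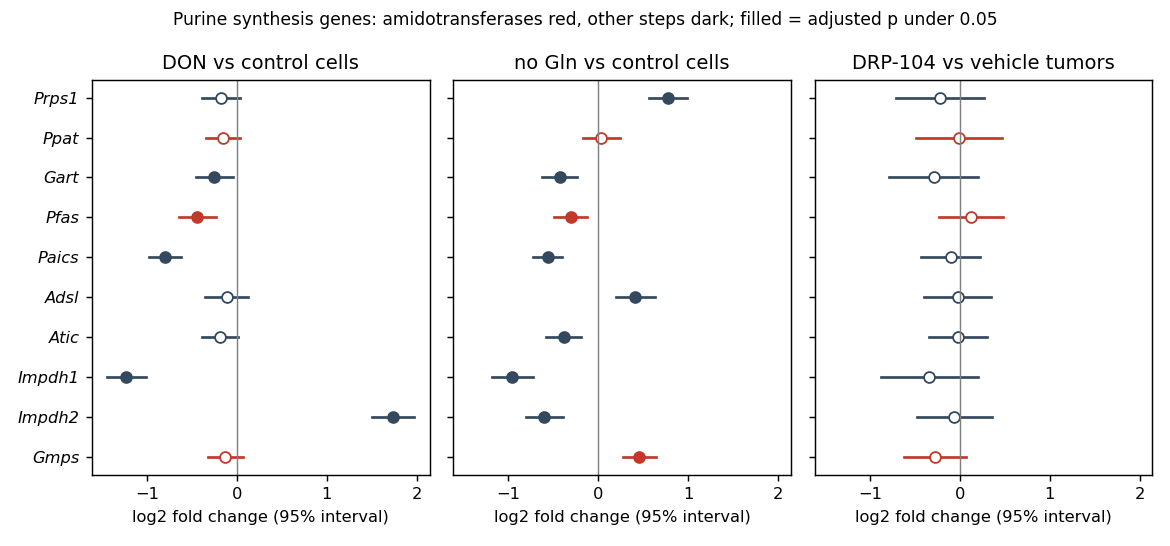
Log2 fold change on log2(value + 1) with its 95% interval (x axis) of the 10 members in pathway order (y axis), for DON against control cells, Gln-free against control cells and DRP-104 against vehicle tumors (n = 3 a group). Amidotransferases are red and filled points have an adjusted p under 0.05; Impdh2 stands at 1.73 after DON and at -0.60 without Gln, and every interval in tumors spans 0.

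The IMP dehydrogenase genes moved in opposite directions after DON. Impdh2 had 34928, 38573 and 31467 normalized counts in the DON libraries and 11536, 10969 and 9087 in controls. Every DON library was above every control. The log2 fold change was 1.73 (SE 0.11, adjusted p = 7.69e-09, limma). Impdh1 had 1139, 1183 and 1117 normalized counts with DON against 2743, 2932 and 2409.7 in controls. Here every DON library was lower, with a log2 fold change of -1.23 (SE 0.10, adjusted p = 8.93e-08, limma). The pseudogene Impdh2-ps moved with Impdh2, from 54.6 to 86.8 normalized counts in controls to 193 to 262 with DON.

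Reads of Impdh2 numbered 3.91 ± 0.26 times those of Impdh1 in control cells (SD, n = 3) and 30.5 ± 2.23 times in DON cells. In Gln-free cells the ratio was 5.0 ± 0.335, in vehicle tumors 3.21 ± 0.921 and in DRP-104 tumors 3.81 ± 0.636. The DON cells alone stood far from the rest: their lowest ratio was 28.2 and the highest in any other library was 5.27. As the ratio sets 2 genes of a library against each other, it does not depend on the scaling between libraries.

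**Figure D2:**
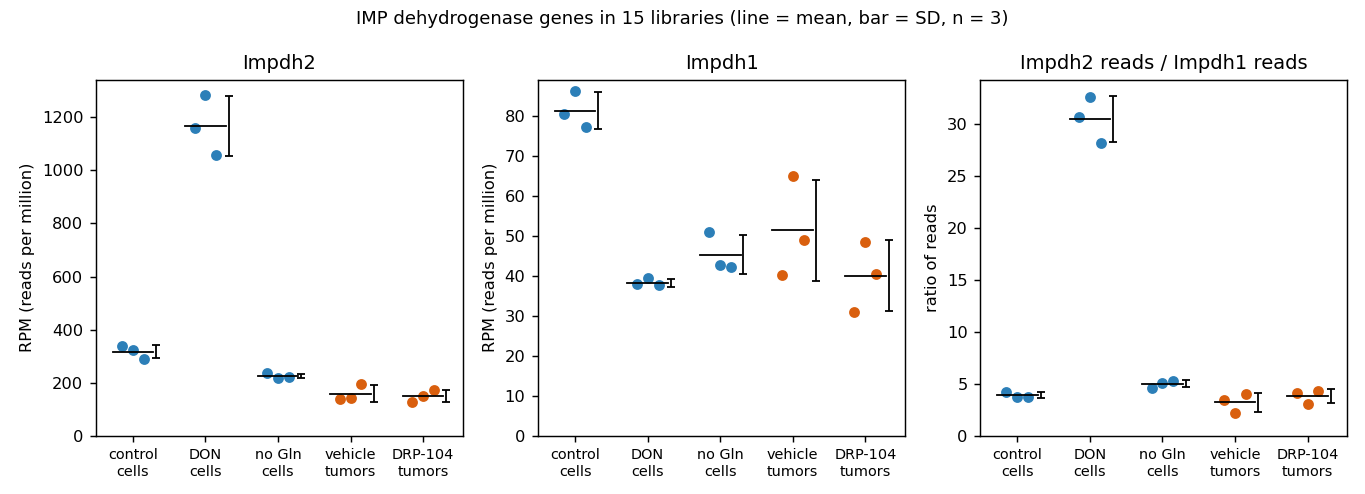
RPM of Impdh2 and Impdh1 and the ratio of their reads (y axes, from 0) in each library of the 5 groups (x axis), with group means as lines and SDs as bars (n = 3). Impdh2 lies between 1058 and 1284 RPM in DON cells, above all other libraries, and Impdh1 lies between 37.6 and 39.4 there, below all 6 other culture libraries.

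Paics, the bifunctional enzyme of the middle steps, fell most among the genes on the way to IMP. Its DON libraries had 6179.9, 6740.0 and 6188 normalized counts and its control libraries 11178, 11024 and 11115. The groups lay far apart, with a log2 fold change of -0.80 (SE 0.08, adjusted p = 1.09e-06, limma). Gart had 4366 to 4834 normalized counts against 4852 to 5903, a log2 fold change of -0.25 (SE 0.10, adjusted p = 0.0346, limma). That call rested on the scaling and on single libraries: scaled to RPM the log2 fold change was -0.11 (adjusted p = 0.235), and it also missed the threshold without any 1 of 5 of the 6 libraries, all but control 3. Adsl, Atic and Prps1 gave log2 fold changes of -0.11, -0.19 and -0.18 and were not called, and their libraries overlapped the controls.

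Of the amidotransferases, Pfas alone was called after DON. Pfas, which adds a further Gln nitrogen on the way to the ring, had 1411, 1485 and 1617 normalized counts with DON and 2128, 2092 and 1895 in controls. All DON values were lower, with a log2 fold change of -0.44 (SE 0.10, adjusted p = 0.00116, limma). Ppat, the committed step, had 2433, 2478 and 2355 normalized counts against 2622, 2589 and 2868. Its groups did not overlap either, yet the log2 fold change of -0.15 (95% interval -0.34 to 0.04) was not called (adjusted p = 0.141, limma). Gmps, the last amidotransferase on the way to GMP, had 4713, 4765 and 4295 normalized counts against 5010.1, 4677 and 5375. These overlapped, with a log2 fold change of -0.13 (95% interval -0.32 to 0.06, adjusted p = 0.218, limma). A fall of the size seen for Paics (-0.80) lay outside the intervals of both Ppat and Gmps.

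**Figure D3:**
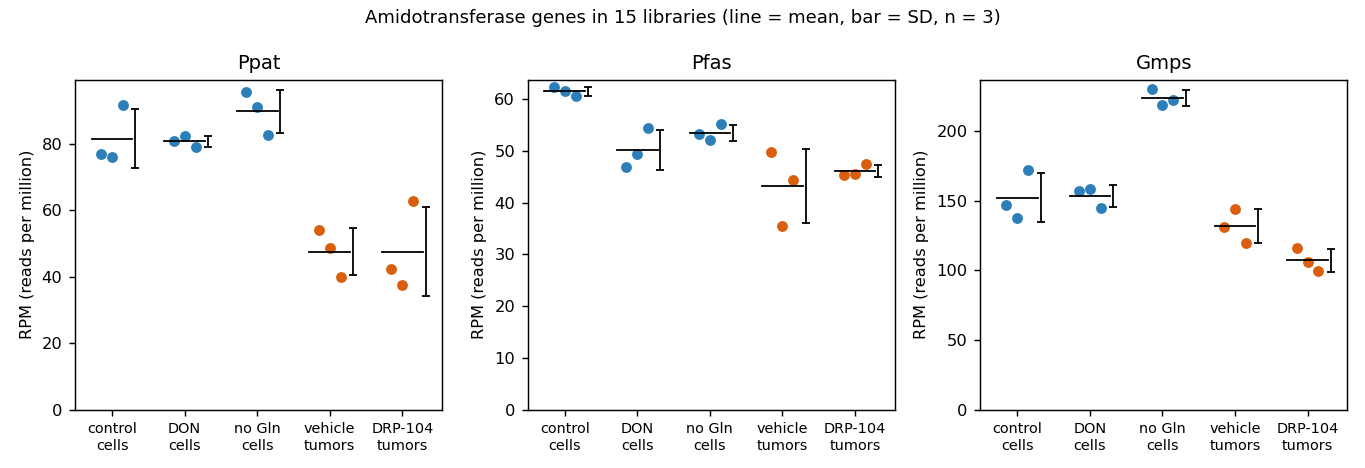
RPM (y axes, from 0) of the 3 amidotransferase genes in each library of the 5 groups (x axis), with group means as lines and SDs as bars (n = 3). Gmps lies between 219 and 230.0 RPM without Gln, above the 138 to 172 of control cells, Ppat in DON cells (79.2 to 82.5) and in Gln-free cells (82.8 to 95.5) overlaps the controls (76.1 to 91.7) on this scale, and Pfas is lower in both treated cultures than in controls.

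Without Gln, 9 of 10 members changed, and the amidotransferases went 3 ways: Gmps rose, Pfas fell and Ppat was not called. Prps1 and Adsl rose with Gmps, while Gart, Paics, Atic and both IMP dehydrogenase genes fell with Pfas. The 3 higher and 6 lower members stand beside 34.5% higher and 34.9% lower, or 69.4% in all, of the 13390 genes tested. In 9 of 10 members the groups did not overlap, as in 73.6% of all genes tested. The members' median log2 fold change was -0.35, beside 0.01 over all genes.

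Gmps had 6768, 6415 and 6420.1 normalized counts without Gln and 4722, 4418 and 5184 in controls. The groups were apart, with a log2 fold change of 0.46 (SE 0.08, adjusted p = 0.000345, limma). Pfas had 1567, 1527 and 1597 against 2005, 1976 and 1828, lower in all Gln-free libraries (log2 fold change -0.31, SE 0.09, adjusted p = 0.00639, limma). Ppat had 2808, 2669 and 2397 normalized counts against 2471, 2445 and 2766, which overlapped. Its log2 fold change was 0.03 (95% interval -0.17 to 0.24, adjusted p = 0.752, limma).

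Prps1, which supplies PRPP, showed the largest rise of the 10 without Gln. It had 2702, 2452 and 2207 normalized counts against 1446, 1342 and 1488, a log2 fold change of 0.78 (SE 0.10, adjusted p = 1.24e-05, limma). Adsl, which acts both on the way to IMP and in the AMP branch, had 4053, 3654 and 3534 against 3153, 2822 and 2509 (log2 fold change 0.41, SE 0.10, adjusted p = 0.0025, limma). Every Gln-free library was above every control for both genes. Impdh2, high with DON, went the other way here, with 6915, 6391 and 6416 normalized counts against 10872, 10361 and 8764 (log2 fold change -0.60, SE 0.09, adjusted p = 8e-05, limma). Impdh1 fell by 0.96 on the log2 scale, Paics by 0.56, Gart by 0.43 and Atic by 0.39, and the Gln-free libraries of these 4 genes all lay below the controls.

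The culture comparisons share their 3 control libraries, so DON and Gln-free cells were also compared directly, after scaling the 9 culture libraries together. Impdh2 was 5.16-fold higher with DON, at 34293, 38022 and 30934 normalized counts against 6994, 6468 and 6492 (log2 fold change 2.37, SE 0.09, adjusted p = 4.64e-11, limma). Gmps was lower with DON than without Gln, at 4627, 4697 and 4222 against 6846, 6492 and 6496 (log2 fold change -0.55, SE 0.08, adjusted p = 1.51e-05, limma). Prps1 (log2 fold change -0.93) and Adsl (-0.49) were lower with DON as well. Gart (0.21), Atic (0.23), Paics (-0.21) and Impdh1 (-0.24) also passed the test, but each missed the threshold without at least 1 of the DON or Gln-free libraries. Ppat (-0.15, adjusted p = 0.114, limma) and Pfas (-0.10, adjusted p = 0.314, limma) were not called. Leaving out DON library 1, DON library 2 or Gln-free library 2 left 5 members called. Over all genes these fits called 7861 of 13497, 7888 of 13483 and 7773 of 13521. With all libraries, 3 members were higher and 5 lower with DON, beside 31.0% and 32.3% (63.3% in all) of 13514 genes tested.

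To set the 3 amidotransferases against the other 7 steps, the mean log2(value + 1) of the 7 was subtracted from that of the 3 in each library. After DON this difference was -0.77, -0.78 and -0.68, and in controls it was -0.72, -0.73 and -0.50, so the groups overlapped and their means differed by -0.09. Without Gln it was -0.38, -0.33 and -0.31, above all controls, and the means differed by 0.31. Tumors gave 0.06, -0.36 and -0.28 with DRP-104 and -0.12, -0.34 and -0.42 with vehicle, a difference of 0.10 with overlapping groups. It was -0.03 without DRP-104 tumor 1, 0.14 without DRP-104 tumor 3 and 0.04 without vehicle tumor 3. The DON value changed when 1 gene was left out. Without Impdh2 among the other steps, a choice made after the data were seen, the DON libraries were at -0.27, -0.26 and -0.19. Controls were then at -0.52, -0.54 and -0.32, a difference of 0.22. Impdh1, the lowest of the other steps after DON (log2 fold change -1.23), stayed in. The difference without both IMP dehydrogenase genes was not computed. Against the same controls, the Gln-free libraries without Impdh2 were at -0.26, -0.20 and -0.17, also above all controls. No p is given for a mean over chosen genes. Within the 3 amidotransferases the log2 fold changes spanned -0.44 to -0.13 after DON and -0.31 to 0.46 without Gln, and those of the other 7 spanned -1.23 to 1.73 and -0.96 to 0.78.

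**Figure D4:**
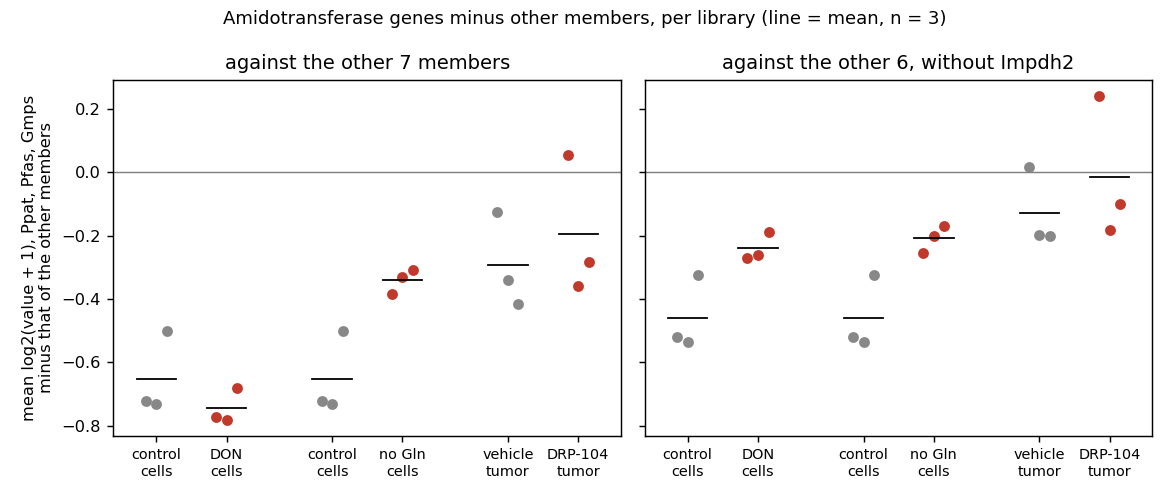
Mean log2(value + 1) of Ppat, Pfas and Gmps minus that of the other members (y axis) in each library of the 3 comparisons (x axis), against all 7 other members and without Impdh2, with group means as lines (n = 3). DON libraries overlap the controls on the left and lie above them on the right, and Gln-free libraries lie above the controls in both panels.

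Scaling matters for the small changes. Scaling to RPM shifted the all-gene median log2 fold change by 0.14 after DON and by 0.10 without Gln. On that scale Gmps (0.02) and Adsl (0.03) turned their sign after DON, while Impdh2, Impdh1, Paics and Pfas kept theirs and their calls.

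In tumors no member was called, nor was any of the 15454 genes tested (0%) by limma or by edgeR, with 775 genes at an unadjusted p under 0.05. DESeq2 called 69 genes, none of them a member. In bulk tumors, fewer cells of a type and less RNA per cell cannot be told apart. All 10 members overlapped between the groups, where 10.6% of all genes did not. Their median log2 fold change was -0.08, from -0.34 (Impdh1) to 0.13 (Pfas), beside -0.01 over all genes tested. No member, and no other gene tested, was called by limma with any 1 of the 6 tumors left out. Without DRP-104 tumor 3 the median was -0.17, from -0.45 (Gart) to 0.13 (Pfas), without DRP-104 tumor 1 it was -0.02, from -0.37 (Gmps) to 0.10 (Pfas), and without vehicle tumor 3 it was -0.08, from -0.36 (Prps1) to 0.16 (Pfas).

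Pfas had 898, 859 and 862 normalized counts with DRP-104 and 895, 681 and 841 with vehicle (log2 fold change 0.13, 95% interval -0.23 to 0.48, adjusted p = 0.937, limma). It was the only member with a positive value when all 6 tumors were used. Ppat had 837, 707 and 1139 against 972, 933 and 757 (log2 fold change -0.01, 95% interval -0.48 to 0.47, adjusted p = 0.999, limma). Gmps had 2297, 2000.2 and 1808 against 2357, 2768 and 2268, with a log2 fold change of -0.28 (95% interval -0.62 to 0.07, adjusted p = 0.916, limma). Only DRP-104 tumor 1 reached into the vehicle range of Gmps. Without DRP-104 tumor 3 the log2 fold changes of Pfas, Ppat and Gmps were 0.13, -0.20 and -0.20.

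Impdh2, the one member that rose with DON in culture, had 2497, 2822 and 3140.3 normalized counts with DRP-104 and 2486, 2738 and 3699 with vehicle. The groups shared their range, with a log2 fold change of -0.06 (95% interval -0.48 to 0.36, adjusted p = 0.979, limma). Its sign depended on single tumors, with -0.14 without DRP-104 tumor 3, 0.02 without DRP-104 tumor 1 and 0.11 without vehicle tumor 3. The culture value of 1.73 lay above the interval from all 6 tumors. DRP-104 tumor 1 was the lowest of the 6 tumors in Gart (760.3), Adsl (730.4), Atic (1705), Impdh1 (613) and Prps1 (354), and without it the log2 fold changes of Adsl (0.09), Atic (0.06) and Ppat (0.02) turned positive as well. In the authors' FPKM table, where columns are known by group alone, Gart (0.17), Adsl (0.07), Atic (0.08) and Impdh1 (0.25) also had positive values on log2(FPKM + 1), none of them called. Mean FPKM there was lower with DRP-104 for Ppat, Paics, Gmps, Prps1 and Impdh2. Paics stood at 75.9 ± 21.5 against 99.4 ± 4.28 and Ppat at 9.99 ± 3.10 against 13.0 ± 2.33 (SD, n = 3). Whether both tables hold the same tumor libraries was not tested. Of 7 marker lists of other cell types, 2 had sums that did not overlap between the tumor groups. Fibroblast genes summed to 1018 to 1630.3 RPM with DRP-104 against 2061 to 4315 with vehicle, and endothelial genes to 64.1 to 99.6 against 102.7 to 124.6. The part of these in the members' values was not tested. The acinar, islet, myeloid, T cell and B cell sums overlapped.

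DON in cells and DRP-104 in tumors differ in dose, route and time, so their effects are set side by side. The effect of DRP-104 in tumors minus that of DON in cells was -1.80 for Impdh2 (SE 0.22, adjusted p = 5.32e-05, limma), 0.89 for Impdh1 (SE 0.26, adjusted p = 0.0188), 0.70 for Paics (SE 0.15, adjusted p = 0.00287) and 0.56 for Pfas (SE 0.17, adjusted p = 0.0224). Of the 4 members that fell in cells, Impdh1, Paics and Pfas had the higher effect in tumors, while Gart (-0.04) was not called, and Impdh2 had the lower effect. These 4 calls remained without DRP-104 tumor 3, at -1.88 for Impdh2, 0.90 for Impdh1, 0.74 for Paics and 0.57 for Pfas. These were 3 members higher and 1 lower, beside 19.1% and 14.0% (33.1% in all) of 15070 genes tested. Without control library 2, only 2 members were called, since Impdh1 (0.83, adjusted p = 0.051, limma) and Pfas (0.54, adjusted p = 0.053, limma) missed the threshold. That fit called 4033 of 15155 genes tested, in place of 4989 of 15070. Ppat (0.14, 95% interval -0.33 to 0.62) and Gmps (-0.15, 95% interval -0.51 to 0.21) were not called.

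All 10 members were lower in vehicle tumors than in control cells, beside 26.7% of 15009 genes called lower there. The smallest difference was that of Gmps (log2 fold change -0.44, SE 0.12, adjusted p = 0.00992, limma) and the greatest that of Gart (-1.52, SE 0.13, adjusted p = 6.19e-06, limma). Ppat differed by -1.02 and Pfas by -0.76, between those ends. Scaled to RPM, where the median of all genes moved by 0.23, 9 of the 10 were still called lower and Gmps was not. On that scale 8805 of 15103 genes tested were called, 6189 of them higher. Under quantile normalization, where the median of all genes moved by -0.23, Gmps and Paics were not called. There 8157 of 15009 genes were called, 3490 of them higher. Tumors hold other cells: fibroblast markers summed to 15.3 to 19.0 RPM in control cells and 2061 to 4315 in vehicle tumors. The libraries also differed in how reads were numbered: 69.6% to 72.7% of genes with 1 to 20 reads had an even number in cultures and 41.9% to 46.5% in tumors. Tissue, counting and cell makeup cannot be told apart in this comparison.

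The remaining genes around the pathway help to place the members. Counts of called genes in the lists below stand beside the shares of all genes tested. These were 33.3% higher and 34.7% lower after DON (68.1% in all), and 34.5% higher and 34.9% lower without Gln (69.4% in all). Of the other synthesis and PRPP genes, Adssl1, an adenylosuccinate synthase, had a log2 fold change of -1.76 after DON and of -2.24 without Gln, and Prps2, the second PRPP synthetase, had -1.19 and -0.64, all called. Adss was called after DON (-0.29) and not without Gln (-0.08), and the DON call was lost on the RPM scale (adjusted p = 0.13, limma). Prpsap1 and Prpsap2, proteins associated with PRPP synthetase, had 0.04 and -0.49 after DON and 0.59 and 0.92 without Gln, where the 0.04 was not called. Reads of Prps1 were thus 1.63 ± 0.135 times those of Prps2 in control cells, 3.28 ± 0.209 times with DON and 4.37 ± 0.396 times without Gln (SD, n = 3). None of these 5 genes was called in tumors.

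Genes of formyl group supply went both ways in either culture, as did all genes tested. Of 10 tested, 5 rose and 2 fell after DON (median log2 fold change 0.31), and 2 rose and 5 fell without Gln (median -0.20). The mitochondrial Aldh1l2 was highest in both, at 3.79 and 2.00 on the log2 scale. Its cytosolic relative Aldh1l1, which uses up formyl-tetrahydrofolate, was lowest in both, at -1.13 and -5.48. Aldh1l1 had at most 26 reads in a Gln-free library. Purine salvage fell in 6 of 7 genes in either culture, with 0 and 1 higher (medians -0.82 and -0.54). Within it Hprt, which reuses hypoxanthine and guanine, changed by -0.65 after DON, the mildest of the 6, and Adk, adenosine kinase, by -1.53. Without Gln, Dck was lowest (-1.01) and Mtap was the one that rose (0.22).

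Purine breakdown genes fell in 7 of 7 tested after DON (median -1.29), from Gda, guanine deaminase, at -4.51 to Ampd2 at -0.65. Of all genes tested, 34.7% were called lower after DON. Gda had only 2, 2 and 8 reads in the DON libraries against 50 to 193 in controls. Without Gln 6 fell, led by Gda (-2.93), and 1 rose, Nt5e (0.56), the surface enzyme that makes adenosine (median -1.31). Ampd1 and Uox of this list did not pass the filter in culture. Among 10 nucleotide kinases and ribonucleotide reductase genes, 8 fell and none rose after DON (median -1.08), and 6 fell and 2 rose without Gln (median -0.57). Rrm2, the regulated reductase subunit, was lowest after DON (-3.08) and Ak1 without Gln (-3.73), where Ak1 had at most 24 reads. Nme1 was at the other end of the called genes in both (-0.37 and 0.50).

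**Figure D5:**
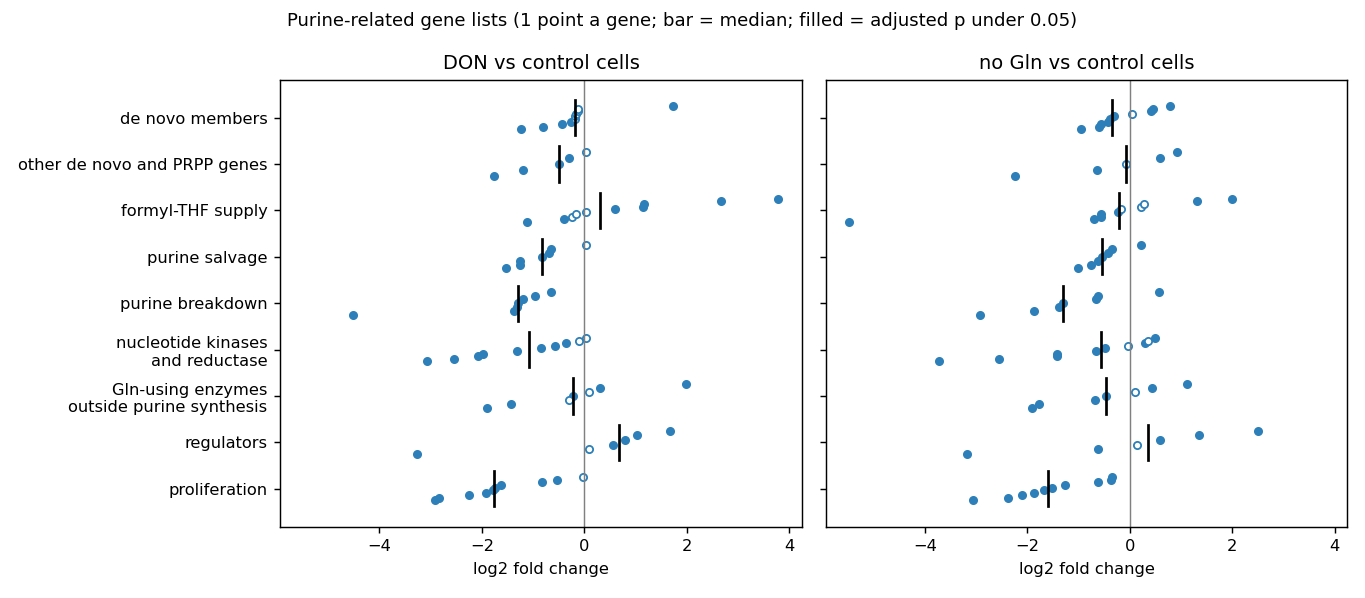
Log2 fold change on log2(value + 1) (x axis) of each tested gene in the 10 members and 8 related lists (y axis), for DON and for Gln-free cells against the same control cells (n = 3 a group). Bars are medians and filled points have an adjusted p under 0.05; the medians of breakdown (-1.29 and -1.31) and proliferation (-1.77 and -1.60) lie left of that of the members (-0.18 and -0.35).

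Other enzymes that use Gln were called in both directions, as were all genes tested. Of 7 tested, 2 rose and 3 fell after DON, from Gls2, a glutaminase, at -1.90 to Asns, asparagine synthetase, at 1.99. Without Gln 2 rose and 4 fell, from the CTP synthase Ctps2 at -1.90 to Asns at 1.12. The list medians were -0.22 and -0.46, and Gfpt2 was not tested in culture. Of 6 regulators, 4 rose and 1 fell after DON (median 0.68), with Atf4 highest (1.67) and Mycn lowest (-3.26), and 3 rose and 2 fell without Gln (median 0.36), with Myc highest (2.49) and Mycn lowest (-3.17). Myc, a known activator of purine synthesis genes, rose by 1.03 on the log2 scale after DON, and Atf4, which responds to amino acid shortage, rose by 1.35 without Gln. Mycn had at most 6 reads in each treated culture library.

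Proliferation genes fell in 9 of 10 after DON (median -1.77) and in 10 of 10 without Gln (median -1.60). Of all genes tested, 34.7% and 34.9% were called lower there. Top2a was lowest after DON (-2.92) and Mcm2 mildest among those called (-0.54), with Aurkb (-3.06) and Pcna (-0.35) at the ends without Gln. The part of this in the members' values was not tested. In tumors none of the genes in these lists was called, and the list medians lay between -0.12 and 0.14. Asns, Myc and Atf4 stood at 0.32, 0.05 and -0.03 there.

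Over the 15 libraries, the genes most like each amidotransferase were found by Pearson's r of log2(RPM + 1) among 10570 genes with a mean of at least 5 RPM. For Ppat these were Aldh3a2 (r = 0.97), Snrpd3 (0.96) and Eif2b1 (0.96), for Pfas Rwdd2b (0.95), Padi2 (0.91) and Coil (0.90), and for Gmps Kmt5a (0.97), Gimd1 (0.97) and Smn1 (0.96). No member is among these 9. Between members the highest values were those of Gart with Atic (0.97), Adsl with Prps1 (0.95) and Gmps with Prps1 (0.93). The points share 5 groups and the gap between tissue and culture, so these values describe the order of groups and carry no p.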

How the data were processed

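RNA-seq of 15 libraries in 5 groups of 3 was analyzed. The authors' methods name HISAT2 for alignment and DESeq2 for testing, and the submitters' processing notes also list STAR 2.5, CASAVA and GRCm39 without a role. The counting tool and the use of strand were not given in the sources used here. The deposited values of the 3 comparison tables are a signal, gene counts that the authors divided by 1 DESeq2 size factor per library within each table. The deposited FPKM table covers tumors only, in GRCm38 coordinates, with columns known by group and not by tumor. Whether its columns are the same tumor libraries as in the comparison table was not tested. Columns of control cells in both culture tables carry a heading that the labels use for vehicle tumors. They were taken as control cells, without a replicate number, because the tables are those of the cultures, and their reads were the same in both for 55291 of 55291 genes. Columns with the authors' own fold changes and p-values were not used.

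Values were divided by the worth of 1 read (tolerance 0.0051), which gave whole reads for at least 99.95% of values in every library. Since the values are normalized, limma 3.58.1 (eBayes with trend, R 4.3.3) tested log2(value + 1) over all genes averaging at least 10, with Benjamini-Hochberg adjustment. DON against Gln-free cells, and vehicle tumors against control cells, used recovered reads with joint size factors by the median of ratios. An interaction contrast tested the tumor effect against the culture effect. Exact permutation of 3 against 3 cannot go below p = 0.10 and was not used.

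Alternatives were other pseudocounts (0.5 and 5), filters and thresholds, quantile normalization, edgeR 4.0.16 and DESeq2 1.42.0 on recovered reads, the FPKM table, a replicate block, each library left out, and, added after the data were seen, reads-per-million (RPM) scaling and leaving Impdh2 out of the other steps. Tests were tested on simulated data. Members and lists were chosen with earlier results of these data known. An allele of the line and a gene of the list of other Gln-using enzymes are not reported here, and that list's counts and medians leave the gene out. Named are all members, the other synthesis and PRPP genes, the lowest and highest called gene of each list in either culture comparison, Asns, Myc and Atf4, and the 3 genes most like each amidotransferase. Promoters were read from RefSeq windows of GRCm38.p6. Tables were handled in Python 3.11.15 with pandas 2.3.3 and plotted with matplotlib 3.10.9. Intervals of limma cover the spread between libraries.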

Additional observations from a re-analysis of the deposited data

Results flagged for a closer look

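For 4 members the effect of DRP-104 in tumors differed from that of DON in cells by the interaction test, beside 33.1% of all genes tested. The differences on the log2 scale were -1.80 for Impdh2 (1.73 in cells and -0.06 in tumors), 0.70 for Paics (-0.80 and -0.10), 0.89 for Impdh1 (-1.23 and -0.34) and 0.56 for Pfas (-0.44 and 0.13). Impdh2 was higher in 3 of 3 DON libraries, and Paics, Impdh1 and Pfas lower in 3 of 3, while in tumors the groups overlapped for all 4. Dose, route, time, tissue and cell makeup differ between these settings and cannot be told apart.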

How the results depend on the processing

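The calls of Impdh2, Impdh1 and Paics after DON, and the 9 calls without Gln, kept their side of the threshold under all alternatives run. Of 132 repeats of a main count or difference, 9 moved. Of the 1265 repeats of a single gene's fold change, 1163 kept direction and call, 61 lost a call, 3 gained one and 38 turned their sign, none of the last for a called gene. The cause of these moves was not tested.

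The 8 members called between DON and Gln-free cells became 5 without a filter on low values and 4 at an adjusted p under 0.01, and 5 to 8 with 1 library left out. Over all genes, 8549 calls of 13514 became 8494 of 25574 without the filter and 7056 of 13514 at 0.01. With 1 library left out, 7773 to 9104 genes were called. The 4 members with a tumor effect unlike the culture effect became 2 under quantile normalization, 2 at an adjusted p under 0.01, and 2 to 4 with 1 library left out. Over all genes, 4989 calls of 15070 became 4108 under quantile normalization and 4016 to 5403 with 1 library left out. The DON difference between amidotransferases and other steps became 0.22 without Impdh2, with Impdh1 (log2 fold change -1.23) kept among the other steps. An adjusted p under 0.01 left 3007 genes with an unlike effect in place of 4989, and DESeq2 called 69 genes in tumors in place of 0.

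All sign changes were those of uncalled genes, and the widest moves were those of Impdh1 and Gart in tumors, from -0.34 and -0.29 to 0.25 and 0.17 in the FPKM table. After DON, quantile normalization gave Atic 0.0081 and Gmps 0.044, scaling to RPM gave Adsl 0.031 and Gmps 0.015, and Prpsap1 spanned -0.052 to 0.11 with 1 library left out. Without Gln, Ppat was -0.023 under quantile normalization and -0.015 to 0.10 with 1 library left out, and Adss was 0.027 on the RPM scale. In tumors, Ppat was 0.022 under quantile normalization, 0.017 in edgeR and 0.012 in DESeq2, and Atic 0.018 under quantile normalization. The FPKM table also gave Adsl 0.066 and Atic 0.080. With 1 tumor left out, Ppat spanned -0.20 to 0.15, Adsl -0.15 to 0.087, Atic -0.10 to 0.062 and Impdh2 -0.18 to 0.11. For the tumor effect minus the culture effect, scaling to RPM gave Ppat -0.017 and Adsl -0.073. With 1 library left out there, Gart spanned -0.20 to 0.19, Prps1 -0.18 to 0.084, Ppat -0.045 to 0.30 and Adsl -0.040 to 0.20.

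Same-numbered deviations from the group means correlated at -0.44, 0.05 and -0.46 in tumors and at -0.05, 0.01 and 0.26 between DON and Gln-free cells. Differently numbered ones spanned -0.45 to 0.58 in tumors and -0.28 to 0.27 in these cells. Deviations from a mean of 3 libraries offset each other, so these values cannot settle whether samples were paired. With the replicate block 0 members were called in tumors and 9 between DON and Gln-free cells, where Ppat (-0.15, adjusted p = 0.043, limma) was added. Over all genes tested, the block gave 0 calls of 15454 in tumors. Between DON and Gln-free cells it gave 9237 calls of 13383, in place of 8549 of 13514. No paired analysis was possible for the other comparisons because the control columns carry no replicate number. With 3 libraries a group and 16.3 to 20.7 M reads counted in genes, the tumor comparison left wide intervals. They reached about 0.3 to 0.5 on the log2 scale on either side for most members.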
